A study of Mus musculus with 4 samples.

Results

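Condensins are ring-shaped protein complexes that fold and stiffen chromosomes as a cell prepares to divide. Both complexes are built on the ATPases SMC2 and SMC4. Condensin I adds the kleisin NCAPH, which closes the ring, and the HEAT-repeat proteins NCAPD2 and NCAPG, while condensin II adds the kleisin NCAPH2 with NCAPD3 and NCAPG2. Condensin II is held in the nucleus, whereas condensin I reaches the chromosomes once the nuclear envelope has broken down, which in an oocyte happens at germinal vesicle breakdown. In oocytes condensins shape the bivalents that must be pulled apart at the first meiotic division.

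The 8 genes of these subunits (*Smc2*, *Smc4*, *Ncapd2*, *Ncapg*, *Ncaph*, *Ncapd3*, *Ncapg2* and *Ncaph2*) were taken by symbol from a table of 21957 genes, and all 8 were found with 1 entry each. The table holds FPKM, fragment numbers scaled to the length of the transcript and to the mapped fragments of the library, from 4 RNA-seq libraries of mouse oocytes. All oocytes came from B6D2F1 (C57BL/6 x DBA) females of 6 to 8 weeks and were freed of cumulus cells. GV oocytes were taken with an intact germinal vesicle at 0 h of culture. MII oocytes were cultured for 12 h in M16 medium without drug and taken only if they had a polar body. TubA-10 and TubA-20 oocytes were cultured for the same 12 h with 10 or 20 μM tubastatin A (TubA), an inhibitor made against the cytoplasmic deacetylase HDAC6, and no selection by polar body is described for them. These doses stand in the titles and column names, which are followed here, but the labels conflict, since their treatment field has 20 μM where the title has 10 μM, and 11 μM where the title has 20 μM. TubA was dissolved in DMSO, and whether the MII oocytes received DMSO is not given in the sources used here. Each condition is 1 library from a pool of 100 oocytes, so no difference could be set against a spread between replicates and none has a p-value. A difference is called here when FPKM + 1 differs more than 2-fold between 2 libraries, and log2 changes are on that scale, which understates the change of low values.

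The libraries carried oocyte mRNA. All 10 oocyte markers were at 197 FPKM or more in GV and at 238 or more in the 3 cultured libraries, with summed levels between 16523 and 22135 FPKM. They moved both ways in TubA-20, where the zona pellucida genes *Zp1*, *Zp2* and *Zp3* and the lattice gene *Padi6* were more than 2-fold lower than in GV (log2 changes between −1.36 and −1.08) and *Gdf9* and *Oosp1* more than 2-fold higher (1.11 and 1.20). The 10 cumulus and granulosa markers summed to between 17.1 and 22.9 FPKM in the 4 libraries, most of it from *Cyp19a1* and *Nr5a2*, and the granulosa factor *Foxl2* was listed at 0 in all 4. The cumulus genes *Tnfaip6* and *Ptx3* were listed at 0 in GV and were at 1.57 and 1.19 FPKM in TubA-20. The part of these markers in the values of the condensin genes was not tested. The 4 globin genes of the blood list were also at 0 throughout. The table holds no fragment counts, so no counting error is given for single values. The median of the 9193 genes that reached 1 FPKM throughout lay above GV by 0.13 (MII), 0.14 (TubA-10) and 0.19 (TubA-20) on the log2 scale. With that median set to 0 the log2 changes against GV given below were lower, those of *Smc4* being 1.69, 1.23 and 1.16 in place of 1.83, 1.39 and 1.39. In pooled oocytes a gene that is lost from some oocytes and a gene that is lower in each of them cannot be told apart.

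Maternal mRNAs of the growing oocyte are stored and later polyadenylated through a cytoplasmic polyadenylation element (CPE) close to the 3′ end, and oligo(dT) selection, which was used here, reads mRNA with a poly(A) tail. The 3′ ends of the 8 mRNAs are therefore shown first. On the principal transcript of each gene (GENCODE M21, GRCm38), TTTTAT or TTTTAAT was searched on the mRNA strand. *Smc2*, *Ncapd2*, *Ncapg* and *Ncapd3* held such a match in the last 100 bases, *Ncaph*, *Ncapg2* and *Ncaph2* held none there, and *Smc4* has an annotated 3′ UTR of only 97 bases with no match. Of 19395 genes with a 3′ UTR of at least 100 bases, 17.9% held a match in the last 100 bases. Capitals mark the match nearest the 3′ end in these 30-base stretches.
Smc2: tttgtttttgtaTTTTATatatagtttcac
Ncapd2: taatgaataaatgtTTTTATagacttttaa
Ncapg: ctaacatgaaatTTTTATtgtgcttctgct
Ncapd3: ataattacaaatTTTTATtaaaagaggtgt
The stretches lie at chr4:52488187-52488216 on the plus strand, chr6:125168007-125168036 on the minus strand, chr5:45700492-45700521 and chr9:27095241-27095270 on the plus strand, and the match begins 62, 16, 43 and 59 bases before the annotated end. In the 1375-base 3′ UTR of *Ncaph2*, the member furthest below its GV level in TubA-20, no match was found anywhere. *Ncaph* and *Smc4*, which were higher than GV in TubA-20, also held none anywhere in the 3′ UTR, where 54.5% of the 20763 genes with a 3′ UTR hold one. A poly(A) signal (AATAAA or ATTAAA) lay in the last 40 bases of 6 of the 8 mRNAs, and *Smc4* and *Ncapg2* held none there. The share was 73.1% of genes with a 3′ UTR of at least 40 bases, so the signal does not set *Ncaph2* apart. The *Ncaph2* end is shown as well, with its AATAAA in capitals, at chr15:89372794-89372823 on the plus strand.
Ncaph2: gtgtctatttacAATAAAttgttctttata
A match is a description of letters and was not tested as a working element. The transcript ends that the oocytes used are not known from this table.

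The 8 mRNAs were present at very unequal levels, and the order was led by the same 2 genes in every library. *Smc4* was the most abundant, with 264 FPKM before culture (GV), 942 after culture without drug (MII), 692 with 10 μM TubA and 693 with 20 μM. It was lowest in GV and highest in MII, and the TubA libraries lay between them at nearly the same level. It was higher than 96.9% of the genes listed above 0 in GV and than 99.6% of them in MII. Its partner *Smc2* was at 22.8, 40.6, 27.3 and 42.6 FPKM in this order of libraries, which is kept below where 4 values follow each other, so MII and TubA-20 were high and GV and TubA-10 low. Although SMC2 and SMC4 form a heterodimer, the *Smc4* mRNA exceeded the *Smc2* mRNA 11.6-fold in GV and 23.2-, 25.3- and 16.3-fold in MII, TubA-10 and TubA-20. Such ratios within a library do not depend on how the libraries are scaled to each other.

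Among the condensin I subunits, *Ncapg* stood second of the 8 in every library, and *Ncapd2* stood last in every library. *Ncapg* was at 125, 120, 120 and 124 FPKM, the narrowest range of the 8. *Ncaph*, the kleisin gene, was at 32.6, 46.0, 51.1 and 41.2 FPKM. *Ncapd2* was at 2.10, 1.84, 1.92 and 3.16 FPKM, so *Ncapg* exceeded it between 39.3-fold in TubA-20 and 65.2-fold in MII. The condensin I mRNAs thus differed more from each other than any of them differed between libraries.

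**Figure D1:**
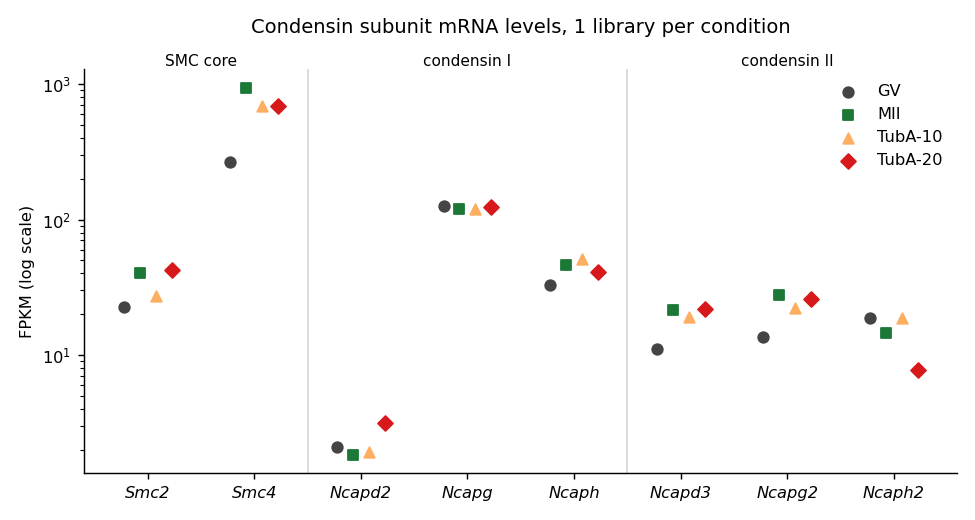
FPKM (log axis) of the 8 condensin subunit genes in the GV, MII and both TubA libraries, 1 point for each library, with the SMC core, condensin I and condensin II subunits in separate blocks. *Smc4* lies highest, between 264 and 942 FPKM, and *Ncapd2* lowest, between 1.84 and 3.16 FPKM, in all 4 libraries.

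The condensin II subunits were closer to each other. *Ncapd3* was at 11.0, 21.3, 18.9 and 22.0 FPKM, with GV below the cultured libraries. *Ncapg2* had GV lowest and MII highest, at 13.6, 27.6, 22.2 and 26.0 FPKM. *Ncaph2* was at 18.9, 14.5, 18.8 and 7.79 FPKM, and so was the highest of the 3 in GV and the lowest in each cultured library. The highest exceeded the lowest of these 3 mRNAs 1.72-fold in GV, and 1.90-, 1.18- and 3.34-fold in the cultured libraries. Neighbours in these orders cannot be ranked against a replicate spread, and in TubA-10 *Ncapd3* exceeded *Ncaph2* only 1.01-fold.

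Maturation without drug was addressed by setting MII against GV. *Smc4* was higher in MII by 1.83 on the log2 scale, a 3.57-fold ratio of FPKM, and was the 1 condensin gene more than 2-fold higher, where 3.05% of all genes and 6.5% of the 10199 genes with a mean of at least 1 FPKM were. The condensin II genes *Ncapg2* and *Ncapd3* came close to 2-fold at 0.96 and 0.90, and *Smc2* was at 0.81. *Ncaph* was higher by 0.48. *Ncapg* at −0.06 and *Ncapd2* at −0.13 differed little, and their sign turned with equal *Gapdh* (0.17 and 0.02), that of *Ncapg* also with equal FPKM sums (0.07). *Ncaph2* was lower by 0.36. None of the 8 was more than 2-fold lower, where 8.34% of all genes and 17.2% of those with a mean of at least 1 FPKM were. The median over the 8 genes was 0.64, against 0.00 over all genes and 0.07 over those with a mean of at least 1 FPKM, whose quartiles were −0.65 and 0.59.

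With 10 μM TubA, *Smc4* was again the 1 condensin gene more than 2-fold higher than in GV, at 1.39. The share past 2-fold was 0.742% of all genes and 1.53% of genes with a mean of at least 1 FPKM. *Ncapd3* was at 0.73, *Ncapg2* at 0.66, *Ncaph* at 0.63 and *Smc2* at 0.25. *Ncapd2*, *Ncapg* and *Ncaph2* lay between −0.09 and −0.01, and each of these signs turned with equal *Gapdh*. None of the 8 was more than 2-fold lower, where 5.6% of all genes and 11.5% of those with a mean of at least 1 FPKM were. The median of the 8 was 0.44, against 0.10 over genes with a mean of at least 1 FPKM.

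With 20 μM TubA, 1 condensin gene exceeded its GV level more than 2-fold and 1 was more than 2-fold lower, where 7.61% and 11.7% of all genes were. Of genes with a mean of at least 1 FPKM, 16.2% were more than 2-fold higher and 23.9% lower. *Smc4* was higher by 1.39 and *Ncaph2* was lower by 1.18, which is 2.43-fold in FPKM. The other condensin II genes *Ncapd3* and *Ncapg2* were higher by 0.94 and 0.88, so 2 subunits of this complex and its kleisin differed from GV in opposite directions. *Smc2* was at 0.87, *Ncapd2* at 0.42, *Ncaph* at 0.33 and *Ncapg* at −0.01, the last turning to 0.06 with equal *Gapdh*. The median of the 8 was 0.65, and that of genes with a mean of at least 1 FPKM was 0.12, with quartiles of −0.94 and 0.80. The comparisons with GV share the GV library, so their values are given side by side only.

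**Figure D2:**
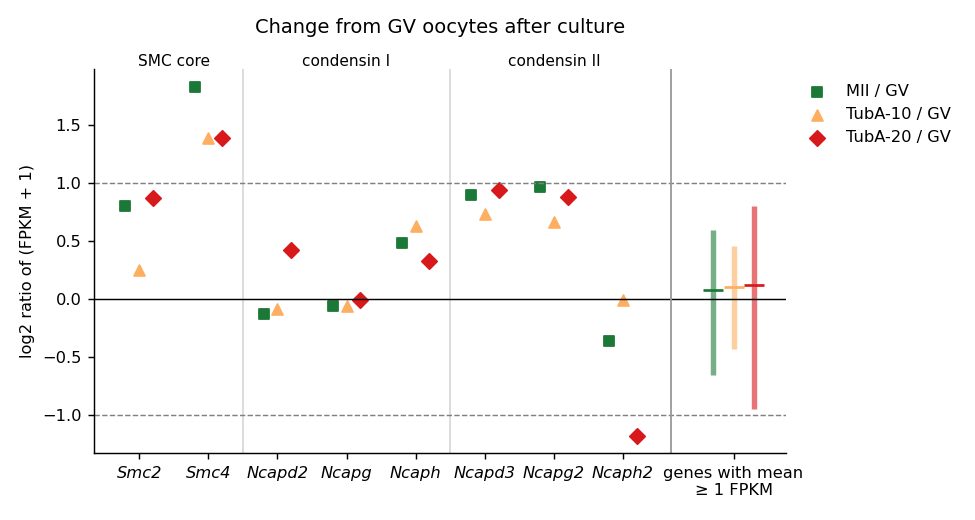
Log2 ratio of FPKM + 1 for MII, TubA-10 and TubA-20 against GV, 1 point per gene and library pair, with dashed lines at 2-fold. The bars at the right give the quartiles and the tick the median of the 10199 genes with a mean of at least 1 FPKM. *Smc4* lies above the upper line in all 3 pairs and *Ncaph2* below the lower line in TubA-20.

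Ratios between paired subunits of the complexes moved as well. *Ncapg* exceeded *Ncapg2* 9.17-fold in GV and 4.35-, 5.40- and 4.79-fold after culture. *Ncapd3* exceeded *Ncapd2* 5.23-fold in GV and 11.6-, 9.87- and 6.95-fold after culture. For both HEAT-repeat pairs the condensin II mRNA was thus higher relative to its condensin I counterpart in the cultured libraries than in GV. The kleisins went the other way. *Ncaph* exceeded *Ncaph2* 1.73-fold in GV and 3.17-, 2.72- and 5.29-fold after culture, most in TubA-20.

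Summed over 3 subunits each, the non-SMC condensin I mRNAs made 160, 168, 173 and 169 FPKM, of which *Ncapg* is the largest part. The condensin II mRNAs made 43.5, 63.4, 59.9 and 55.8 FPKM. Condensin II was then 21.4% of the non-SMC sum in GV, and 27.4%, 25.7% and 24.8% after culture. This order rests on how the subunits are combined. With the median subunit of each complex the shares were 29.5%, 31.7%, 27.0% and 34.8%, so TubA-10 was then lowest and TubA-20 highest.

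**Figure D3:**
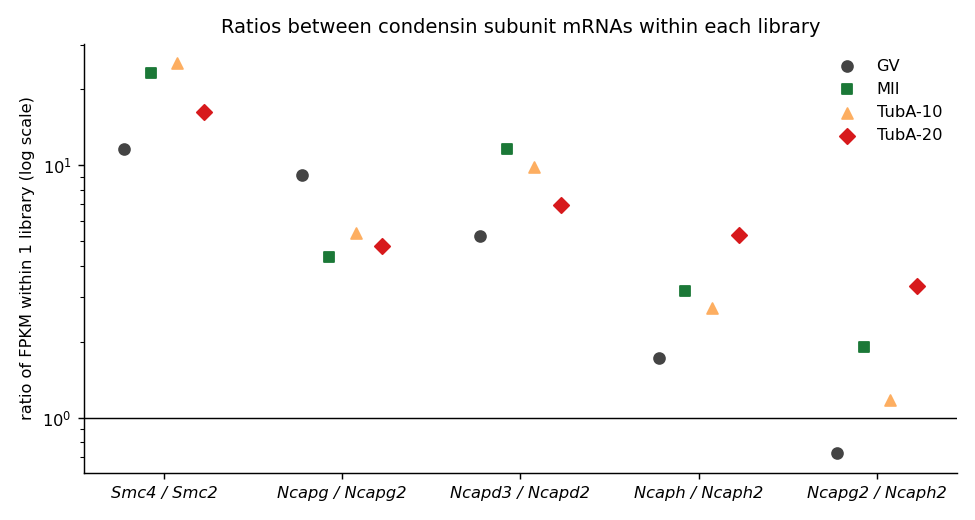
Ratio of FPKM between pairs of condensin mRNAs within each of the 4 libraries (log axis), 1 point per library. *Ncapg2* lies below *Ncaph2* in GV at 0.722 and above it in the cultured libraries, up to 3.34 in TubA-20.

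TubA-10 and TubA-20 were also set against MII, which had the same culture time without drug. The study reports, without naming a dose, that TubA-treated oocytes failed to extrude a polar body, by which the MII oocytes were selected. Where its text names a dose for the failure to progress, it is the high dose, that of TubA-20. The stage reached by the TubA-10 oocytes is not stated separately in its text. Drug, meiotic stage and selection therefore cannot be told apart in these comparisons. No condensin gene passed 2-fold in either. In TubA-10, 0.128% of all genes were more than 2-fold lower and 0.515% higher, and in TubA-20 2.44% were lower and 0.328% higher. Both comparisons share the MII library. *Smc4* was lower than in MII by 0.45 at the low and 0.44 at the high dose, or 1.36-fold in both. *Smc2* was lower in TubA-10 by 0.55 and near MII in TubA-20 at 0.07, which turned to between −0.09 and −0.05 with equal *Gapdh*, upper quartiles or FPKM sums. *Ncapd3* was at −0.16 and 0.04, with the sign of the latter turning under the same 3 scalings, and *Ncapg2* at −0.30 and −0.08.

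Of the kleisin genes, *Ncaph* was at 0.15 with 10 μM and −0.16 with 20 μM. *Ncaph2* was at 0.35 with 10 μM and −0.82 with 20 μM, the widest gap between the doses among the 8 genes. *Ncapd2* was at 0.04 and 0.55, from FPKM values of 3.16 or less. *Ncapg* was at 0.00 and 0.05. The medians of the 8 genes were −0.08 at the low and −0.02 at the high dose, and those of genes with a mean of at least 1 FPKM were 0.01 and 0.00. At the high dose 4 of the 8 were below MII, as were 5062 of the 10199 genes with a mean of at least 1 FPKM. Under the scalings to *Gapdh*, to upper quartiles or to sums 7 of the 8 were, with medians between −0.17 and −0.14. These scalings moved the other genes too, and the median of the 9193 genes that reached 1 FPKM throughout then lay between −0.12 and −0.08. The median of the 8 was under these scalings lower at the high than at the low dose.

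**Figure D4:**
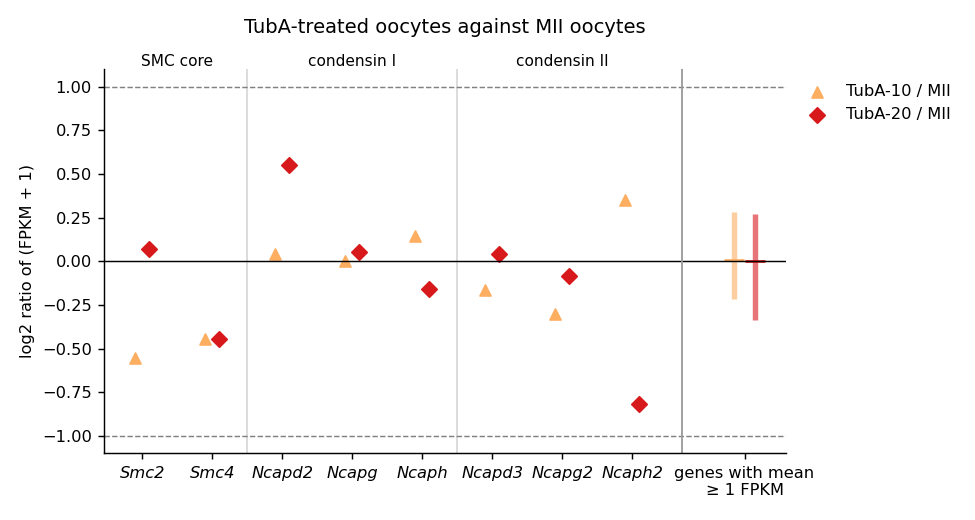
Log2 ratio of FPKM + 1 for TubA-10 and TubA-20 against MII, 1 point per gene and library pair, with dashed lines at 2-fold and the quartiles and median of genes with a mean of at least 1 FPKM at the right. All points lie inside the 2-fold lines, and *Ncaph2* lies at 0.35 with 10 μM and at −0.82 with 20 μM.

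Set directly against TubA-10, TubA-20 had *Ncaph2* lower by 1.17, or 2.42-fold in FPKM, the 1 condensin gene past 2-fold. Of all genes, 5.52% were more than 2-fold lower and 0.66% higher. Of genes with a mean of at least 1 FPKM, 11.8% were lower and 1.27% higher. *Smc2* was higher in TubA-20 by 0.62, *Ncapd2* by 0.51, *Ncapg2* by 0.22 and *Ncapd3* by 0.21, and *Ncaph* was lower by 0.30. *Smc4* was at 0.00 and *Ncapg* at 0.05, and both turned negative under all 4 other scalings, to −0.19 and −0.14 with equal *Gapdh*. The median of the 8 was 0.13.

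*Ncaph2* lies on chromosome 15 (89355719 to 89372826, plus strand, GRCm38), and its 3′ end overlaps *Sco2* and *Tymp* on the opposite strand. *Sco2*, a copper chaperone gene of cytochrome oxidase, was at 20.9, 6.87, 8.42 and 2.92 FPKM, and so was also lowest in TubA-20. Its part in the values of *Ncaph2* was not tested. The fragments were assigned with a strand-specific setting, as the methods of the study state. *Ncapg* overlaps *Lcorl* on the opposite strand, which was at 8.72 FPKM in GV and between 2.86 and 3.54 in the cultured libraries. *Smc4* (chromosome 3, 69004738 to 69034623) hosts the microRNA genes *Mir15b* and *Mir16-2* on its own strand.

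In the 4 values of log2(FPKM + 1), each centred on its mean, the genes closest to *Smc4* among 7141 others with a mean of at least 5 FPKM were *Ppard*, *Zfp568* and *Luzp1*, at Euclidean distances of 0.11, 0.18 and 0.19. *Luzp1*, for example, was at 103, 356, 232 and 275 FPKM. Closest to *Ncaph2*, a gene chosen for this after its values were seen, were *Capzb*, *Ctsb* and *Lonp2*, at 0.03, 0.03 and 0.05. *Capzb*, which encodes the beta subunit of the actin capping protein, was at 63.3, 48.3, 61.8 and 27.4 FPKM. With 4 libraries such distances only describe likeness.

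Genes that belong to the same protein family or act on condensin were described from fixed lists. The other SMC family holds *Smc1a*, *Smc1b* and *Smc3* of cohesin, *Smc5*, *Smc6* and the *Nsmce* genes of the SMC5/6 complex, *Rad50* of the DNA break sensor and *Smchd1*. Of these 11 genes, 10 were higher and 1 lower in MII than in GV, with 2 (*Smc3* and *Smc6*) and 1 past 2-fold and a median of 0.72. Of genes with a mean of at least 1 FPKM, 6.5% were more than 2-fold higher and 17.2% lower. The alternatives put between 2 and 5 of them more than 2-fold higher and kept 10 above GV. In TubA-20 against GV, *Smc3*, *Smc6* and *Nsmce4a* were the 3 of the 11 more than 2-fold higher, none was lower by as much, and the median was 0.87, where 16.2% of genes with a mean of at least 1 FPKM were higher and 23.9% lower. Under the alternatives between 1 and 5 were more than 2-fold higher, and with the median change set to 0 *Nsmce1* was more than 2-fold lower (−1.14). In TubA-10 against GV none was more than 2-fold higher and 1 was lower, with a median of 0.53. *Smc3* was just inside the line, with a 2.01-fold ratio of FPKM, and the alternatives put between 0 and 2 genes past it, where 1.53% of genes with a mean of at least 1 FPKM were higher and 11.5% lower. *Smc3* was at 60.9, 160, 122 and 140 FPKM, with *Smc4* exceeding it 4.34-fold in GV and 5.89-fold in MII. *Nsmce1*, a RING-domain subunit of SMC5/6, was the exception at 224, 81.1, 91.8 and 118 FPKM.

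In TubA-10 against MII, 10 of these 11 genes were lower, with a median of −0.34. The count of 10 lower and none past 2-fold held under all 6 alternatives. Of the 10199 genes with a mean of at least 1 FPKM, 4982 were lower, and their median was 0.01. In TubA-20 the median of the 11 was 0.05, and it turned to between −0.11 and −0.07 with equal *Gapdh*, upper quartiles or FPKM sums. The median of the 9193 genes that reached 1 FPKM throughout was between −0.12 and −0.08 under these scalings. *Smc2*, at −0.55 and 0.07, had the same order of the doses as the median of the 11 genes.

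Among the 12 regulators and partners, 1 was more than 2-fold higher than GV in MII (*Top2b*) and 1 in TubA-20 (*Csnk2a1*), 1 was lower in each, and none passed 2-fold in TubA-10. These counts stand beside 3.05% of all genes higher and 8.34% lower in MII, and 7.61% and 11.7% in TubA-20. Of genes with a mean of at least 1 FPKM, 6.5% were higher and 17.2% lower in MII, and 16.2% and 23.9% in TubA-20. No result about these genes is read from 1 of 12. Scaling to equal *Gapdh* put 3 of them more than 2-fold higher in MII and 2 in TubA-10. Equal FPKM sums put 2 there in MII, and a median change set to 0 put none. Pseudocounts of 0.1 and 0.01 put 2 of them more than 2-fold higher in TubA-20. *Cdk1*, whose kinase phosphorylates condensin subunits at entry into division, was the lower one, at 179, 44.2, 121 and 15.5 FPKM. Set against MII, *Cdk1* was higher in TubA-10 by 1.43 and lower in TubA-20 by 1.45. The study reports less *Cdk1* mRNA in TubA-treated oocytes than in GV or MII oocytes. By immunofluorescence it reports more CDK1 protein with TubA than in the control. *Csnk2a1*, the catalytic subunit gene of casein kinase 2, which phosphorylates condensin I in interphase, was at 65.6, 122, 117 and 198 FPKM. *Mcph1*, which holds condensin II off chromosomes before division, was at 58.4, 71.6, 71.3 and 82.7 FPKM. *Akap8*, which has been tied to the loading of condensin, was at 7.94, 7.67, 8.38 and 4.61 FPKM, and was thus lowest in TubA-20, while its relative *Akap8l* was at 18.0, 18.0, 17.2 and 19.4 FPKM. Of the mitotic kinase genes, *Plk1* was at 126, 157, 169 and 167 FPKM and *Aurkb* at 14.1, 19.7, 24.9 and 21.9 FPKM. *Aurkc*, the Aurora kinase gene of germ cells, was at 569, 609, 480 and 963 FPKM, and so was 2.01-fold higher in TubA-20 than in TubA-10, which fell below 2-fold under all 4 other scalings. The study reports a reduced level of this mRNA in TubA-treated oocytes, from RNA-seq and from RT-qPCR of separate oocytes normalized to *Gapdh*. In these FPKM values TubA-10 was below GV and MII, and TubA-20 was above both. With equal *Gapdh* the change of *Aurkc* in TubA-10 against GV turned from −0.25 to 0.02.

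Of the proteins that shape chromosomes beside condensin, topoisomerase IIα (*Top2a*) was at 18.6, 29.5, 25.5 and 28.2 FPKM. *Top2b* was at 6.34, 14.7, 11.4 and 12.9 FPKM. *Kif4*, a chromosome-bound kinesin, was at 67.8, 86.7, 84.4 and 76.8 FPKM, and *Mki67*, a component of the chromosome surface, at 20.8, 38.3, 28.1 and 38.9 FPKM. All 4 were higher in each cultured library than in GV, by between 0.18 and 1.09, except that *Kif4* in TubA-20 turned to −0.04 with the median change set to 0.

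**Figure D5:**
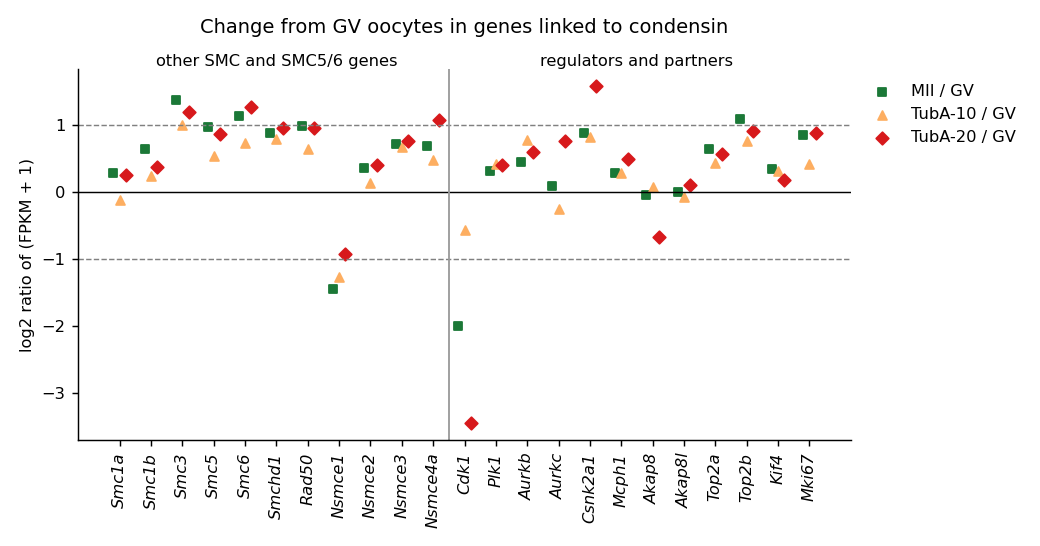
Log2 ratio of FPKM + 1 against GV for the 11 other SMC and SMC5/6 genes and the 12 regulators and partners, 1 point per gene and library pair, with dashed lines at 2-fold. *Cdk1* lies lowest, at −3.45 in TubA-20, and *Csnk2a1* highest, at 1.58 in TubA-20.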

How the data were processed

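The only file is a table of FPKM values deposited by the authors. Per the labels and the methods of the study, reads were aligned to mm10 with STAR 2.5.0 and quantified with Cufflinks in its first-strand setting (Cuffdiff 2.2.1 is also named in the submitters' processing notes). FPKM thus includes a correction for transcript length and library depth. The 21959 entries were given symbols by Ensembl identifier without version, 165 had no match, and entries with the same symbol were summed to 21957 genes. Coordinates and 3′ ends were taken from GENCODE M21, on the same assembly (GRCm38). The annotation has a later version of *Ncapd3* and *Ncapg2* than the table. Log2 ratios used a pseudocount of 1 FPKM and no filter. Named genes were the 8 members, fixed lists of related genes and markers, and the 3 genes with the closest pattern to the member with the highest mean and to that with the widest range, which were both *Smc4*. The members and lists were chosen with earlier results of these data known. There is no test, because each condition is 1 library. Alternatives were pseudocounts of 0.1 and 0.01, 4 scalings (median log2 change of 0, equal sums of FPKM, or equal *Gapdh* or upper quartiles) and a minimum mean of 1 FPKM. A further regulator, beyond the 12 described, is not reported here. The scripts were tested on simulated data. Python 3.11.15 with numpy 2.4.6, pandas 2.3.3 and matplotlib 3.10.9 was used.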

Additional observations from a re-analysis of the deposited data

Results flagged for a closer look

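*Ncaph2* was higher in TubA-10 and lower in TubA-20 when each was set against MII (log2 changes 0.35 and −0.82). It was picked out because the 2 doses lay on opposite sides of MII by at least 0.25. The difference between the doses was not tested, since each dose is 1 library.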

How the results depend on the processing

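No paired analysis was possible because each condition has 1 library. The number of condensin genes more than 2-fold higher in MII than in GV moved from 1 to 2 with a pseudocount of 0.1 or 0.01 or with equal upper quartiles (*Ncapg2* was added), to 3 with equal FPKM sums (*Ncapd3* also) and to 4 with equal *Gapdh* (*Smc2* also). The other counts past 2-fold did not change under these 6 alternatives. The median of the 8 genes in TubA-20 against TubA-10 turned to −0.061 with equal *Gapdh*. The condensin II share with the median subunit was 29.5% before culture, 31.7% for MII and 34.8% for TubA-20. Of 288 recomputed log2 changes of single genes, 250 kept their sign and their side of 2-fold, 8 passed 2-fold only in the alternative, and 30 that had not passed it turned sign. The cause was not tested beyond the scaling itself. The table holds no fragment counts, so no counting interval is given, and the low FPKM of *Ncapd2* limits what can be said of its direction.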
